A study of Mus musculus with 6 samples.

Results

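The 3 control libraries of a mouse olfactory bulb RNA-seq series were described on their own, out of 6 libraries in all. They were taken by their genotype label, WT, and the other 3 libraries came from mice with Sox9 deleted. Of 24421 gene symbols listed for each library, 15659 (64.1%) had a mean of 10 or more over the 3 control libraries, and these are the kept genes described here. The values are normalized counts, which are the reads on a gene divided by one scaling factor per library. They allow one gene to be compared between libraries. The order of genes by normalized count is an order of reads drawn, which grow with transcript length, so where levels of different genes are compared they were first divided by the length of their exons in kilobases (kb), and places by normalized count are ranks of reads drawn.

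The control mice were adults with unmodified Sox9, of strain C57BL/6 by the labels and C57BL/6J by the methods. Their olfactory bulbs had been injected with the virus AAV-GFAP-iCre-P2a-TurboRFP, in which a GFAP promoter drives both Cre recombinase and a red fluorescent protein, so the controls carried the virus and Cre as well. The knockout mice were Sox9 fl/fl animals that received the same virus. Bulbs were dissociated with papain 4 weeks after injection, red fluorescent cells were sorted straight into lysis buffer, and 10 ng of total RNA went into each library. Sorted cells were not run through the sorter again to check purity, which the study judged from cell type markers in the sequencing. Uninjected animals, unsorted tissue and astrocytes of another brain region were not analysed here, so a level here can be read against other genes in the same libraries but not against cells that were left undisturbed. Each library came from one mouse, and with one group there was nothing to test: the errors given are SDs over the 3 libraries.

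Astrocytes are the glial cells that clear glutamate and GABA from synapses, take up the potassium that neurons release, supply neurons with lactate and lipids, and form the sheath of end feet around blood vessels. Sox9 is a transcription factor that most adult astrocytes express and few other adult brain cells do. In the olfactory bulb, astrocytes lie among the axons of olfactory sensory neurons, the mitral and tufted cells that relay odor signals, and the interneurons that are replaced throughout life by neuroblasts.

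The 3 libraries held 20780924, 44686863 and 18242129 reads on genes, and between 18159 and 18625 symbols had at least 1 read. Ribosomal RNA precursor Rn45s took 18.3% to 22.4% of those reads. Across the kept genes the Pearson correlation of log2 normalized counts between pairs of libraries was 0.974 to 0.980, over genes, which are not independent of one another. Sox9 stood at 5185, 6562 and 4921 normalized counts in control replicates 1, 2 and 3 and at 52.6 to 64.3 in the 3 knockout libraries, which checks the labels and is not used further. Sex-linked genes divided the control libraries. The 4 Y-linked genes Ddx3y, Eif2s3y, Uty and Kdm5d summed to 8407, 1.38 and 15.8, and Xist, the RNA that coats the inactive X chromosome, stood at 92.1, 45228 and 53727. Replicate 1 therefore carried the male pattern and replicates 2 and 3 the female one, where the study's methods name males for the sorting and both sexes for the experiments in general, and the labels give no sex. Sex cannot be told apart from the other differences of replicate 1 from replicates 2 and 3. Results are accordingly given for each library.

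Levels of the kept genes ran from a mean of 10 up to 6269268 for Rn45s. Of these genes, 12064 had a mean of at least 100, 5018 of at least 1000, 276 of at least 10000 and 6 of at least 100000. Those 6 included Rn45s, the nuclear long noncoding RNA Malat1 (704476 ± 113539.6, SD, n = 3), the glutamate transporter Slc1a2, the mitochondrial leucyl-tRNA synthetase Lars2 (238814 ± 5346) and the lipid carrier Apoe. Such values count library fragments assigned to a gene model, and whether those on Lars2 came from the synthetase mRNA was not tested. The 10 highest genes held 26.9% ± 1.67 (SD, n = 3) of the reads on genes, of which Rn45s was the greater part. Without Rn45s they held 7.96% ± 0.461, and the 1000 highest held 50.7% ± 0.159. Genes annotated as protein-coding made up 14163 of the kept genes (90.4%). Another 614 (3.92%) had no annotation under their symbol, Rn45s and Sepp1 among them. Long noncoding, antisense, small RNA and pseudogene entries made up most of the rest.

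**Figure D1:**
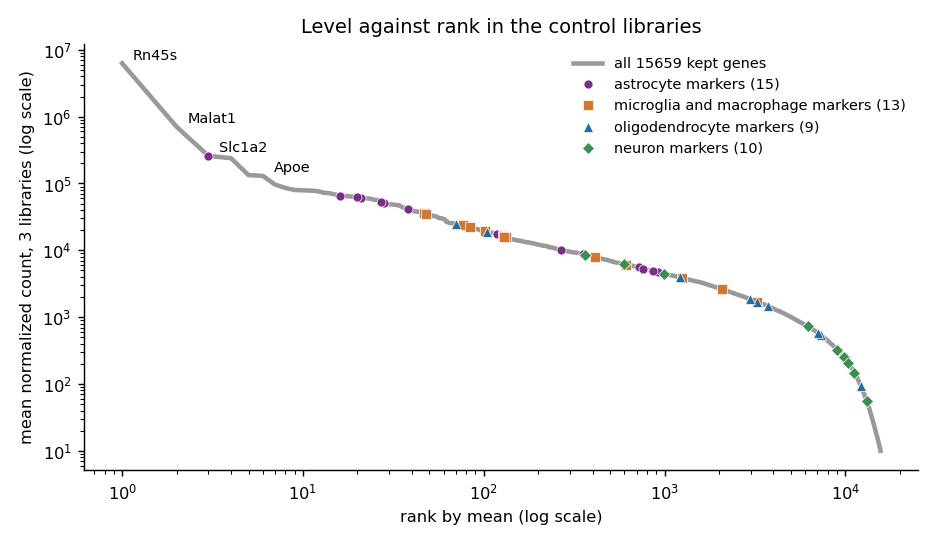
Mean normalized count over the 3 control libraries (y axis, log scale) against rank (x axis, log scale) for the 15659 kept genes (grey line), with the markers of 4 cell types on it. All 15 astrocyte markers lie in the first 1000 ranks, together with 10 of 13 microglia and macrophage markers, 2 of 9 oligodendrocyte markers and 3 of 10 neuron markers.

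The 20 genes that drew the most reads were completed by cytoskeletal, secreted, transporter and enzyme genes. In order of mean these were beta-actin (Actb), the receptor-type phosphatase Ptprz1, the secreted glycoprotein Sparcl1, the MHC class I light chain B2m, the elongation factor Eef1a1, the fatty acid desaturase Scd2, the protease inhibitor Cst3, the neurotrophin receptor Ntrk2, the GABA transporter Slc6a11, the glutamate transporter Slc1a3, selenoprotein P (Sepp1), the proteoglycan neurocan (Ncan), the immediate early gene Egr1 and glutamine synthetase (Glul). They ran from 96375 down to 62259 normalized counts. The SD was under 20% of the mean in every one, and was widest in Sepp1 (77901, 64857 and 52441) and narrowest in Glul (62874, 64031 and 59873).

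Ranking by normalized count per kb brought short genes up. A length was found for 15045 kept genes (96.1%), and Rn45s and Sepp1 had none. The first place went to Mir6236, whose gene model on chr9:110281287-110281409 (mm10, plus strand) is 0.123 kb long. It stood at 15198, 15744 and 24055, highest in replicate 3. These values count library fragments assigned to the gene model and do not measure a mature miRNA. The sequence is given because this entry heads the list, with the seed (bases 2 to 8) in capitals, from RefSeq on GRCm38.p6, chr9:110281353-110281371.

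mmu-miR-6236: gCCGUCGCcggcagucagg

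Of 1169 miRNA gene symbols listed, 55 were kept, and Mir684-1 (2274, 2155 and 1833) was the other one among the first 20 per kb. The first 20 after Mir6236 included Malat1 (100884 normalized counts per kb), B2m (92088), Cst3 (84714), Apoe (70661), Lars2, Actb, Eef1a1, the ferritin light chain Ftl1, the tetraspanin Cd81, the chemokine Ccl3, Sparcl1, the ferritin heavy chain Fth1, carboxypeptidase E (Cpe), the lysosomal proteases Ctss and Ctsd, Glul and Slc1a2. Ccl3 (22880.1, 24398 and 23374) and Ctss (32545, 29816 and 34538) are known as products of microglia and macrophages. Both varied little between the libraries, with a coefficient of variation (CV, the SD as a percent of the mean) of 3.29% and 7.34%.

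All 15 members of the astrocyte marker list were kept, with means from 4697 to 258895 normalized counts. Slc1a2 on chr2:102658659-102790784 drew the most reads and encodes the main glutamate transporter of the forebrain. It stood at 253397, 279165 and 244122. Its partner Slc1a3 stood at 68899, 67325 and 61695. Replicate 3 was the lowest for both. Glul, which turns the glutamate taken up into glutamine, stood at 62874, 64031 and 59873. The water channel Aqp4 stood at 64946, 58274 and 57972 and the sodium pump subunit Atp1b2 at 60777, 54405 and 44202, both highest in replicate 1. The bicarbonate cotransporter Slc4a4 stood at 54913, 52361 and 47255 and the glycolytic enzyme Aldoc at 40156, 47075 and 38627, the latter highest in replicate 2.

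The remaining astrocyte markers drew fewer reads and were also within the first 1000 ranks. Gfap, the intermediate filament whose promoter drove the virus, stood at 14472, 18972 and 19118 and was the marker with replicate 1 most clearly below the others. The gap junction proteins Gja1 and Gjb6 stood at 11363, 8966 and 10162 and at 6041, 4685 and 3980. Growth factor receptor Fgfr3 stood at 9773, 9059 and 7467 and neurotensin receptor Ntsr2 at 6477, 4938 and 4592. For Gjb6, Fgfr3 and Ntsr2 the order was the same, with replicate 1 highest and replicate 3 lowest. The calcium-binding protein S100b stood at 5281, 5554 and 5167 and the folate enzyme Aldh1l1 at 4350.4, 4859 and 4882, and both differed little between libraries. Sox9 itself, on chr11:112782224-112787760, ranked 722 by mean and 897 per kb. Summed over the list, the libraries held 668904, 686231 and 614033 normalized counts (CV 5.74%), and the lowest sum was that of replicate 3.

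**Figure D2:**
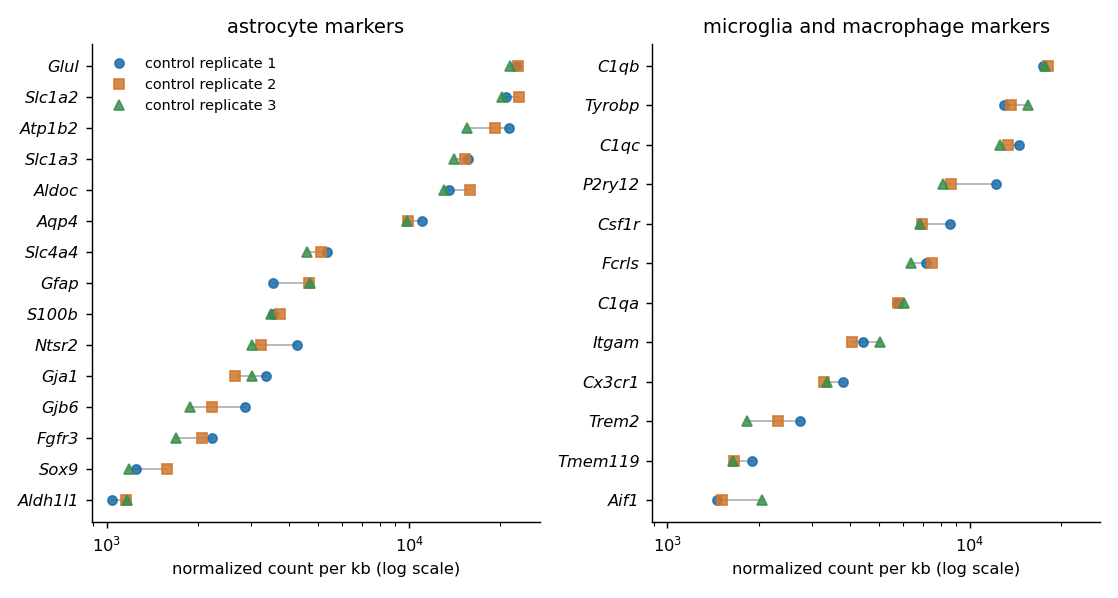
Normalized count per kb (x axis, log scale) of each astrocyte marker (left) and 12 of the 13 microglia and macrophage markers (right) in the 3 control libraries, with a grey line from the lowest to the highest library. The astrocyte markers run from Aldh1l1 (1125) to Glul (22299) and the microglia and macrophage markers from Aif1 (1677) to C1qb (17743) among the 12 drawn of 13, as means over the libraries.

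Transcription factors known from astrocytes were all kept, 28 of 28, with a median of 609 normalized counts per kb beside 2415 for the glutamate and GABA genes described further on. Per kb the highest were Id2 (2052), Hey1 (1859), Sox9 (1344) and Stat3 (1235), factors that act downstream of BMP, Notch and cytokine signals or, for Sox9, in gliogenesis. By normalized count the first were Tcf4 (12983, 12808 and 13871), the nuclear factor I gene Nfia (10424, 10677 and 9216), Stat3 (6947, 8801 and 7320), the orphan receptor Rorb (7059.7, 6661 and 6059), Nfix (5439, 6258 and 5101) and Sox9. Replicate 1 was the highest library in 20 of the 28 and replicate 3 the lowest in 19, against 35.2% and 36.9% of all kept genes. The summed level was close in the 3 libraries, at 93916, 93115 and 84690.4.

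Transcription factors listed by position along the brain axis divided by list. The lists came from general knowledge, and whether each member is restricted to its region was not tested. Of 10 factors listed as forebrain, 8 were kept. The LIM factor Lhx2 stood at 2589, 2616 and 2243 and the zinc finger factor Zic1 at 1853, 1557 and 1595. Below them stood the nuclear receptor Nr2e1 (925, 996 and 824), Pax6 (887, 774 and 851), Otx1 (650.3, 586 and 441), Zic2 (399, 354 and 336) and Emx2 (104, 127 and 67.8). Emx1 was under 10 (2.92, 11 and 4.73) and Six3 had no read in any library. Of 14 midbrain and hindbrain factors none was kept. En1, Irx3, Irx5, Hoxa2, Hoxb2, Hoxb5, Hoxc4 and Hoxd3 had 0 reads in all 3 libraries, and each limit of 3 reads that this allows corresponds to 2.06 to 4.73 normalized counts, counting error only. A 0 can also come from the way reads were counted, since Rpl26 and Ndufs5, which every cell uses, were at 0 in these libraries too. En2 (8.77, 6.88 and 6.3), Hoxb4 (5.85, 13.8 and 0), Irx2 (0, 6.88 and 4.73), Irx1 (1.46, 6.19 and 3.15), Gbx2 (1.46, 0.688 and 3.15) and Hoxb3 (1.46, 2.75 and 0) had a few reads each.

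Genes of glutamate and GABA handling were kept in 16 of 16, with a median of 10970.1 normalized counts, and 6 of them were among the 100 highest of all genes. Per kb, Glul (22299) and Slc1a2 (21410.4) were followed by Slc6a11 (16627) and Slc1a3 (14980.2). The GABA transporter Slc6a11 stood at 77486, 68620.4 and 60005. It was highest in replicate 1 and lowest in replicate 3. Glutamate dehydrogenase (Glud1) stood at 39177, 37660.3 and 34177. Replicate 3 was the lowest library in 13 of the 16 genes, beside 36.9% of all kept genes. The glutamine transporter Slc38a5, at 8.77, 5.51 and 23.6, was close to the threshold of 10 and replicate 3 was its highest library.

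Genes for potassium, water and coupling were kept throughout, 18 of 18, with a median of 2683 normalized counts per kb, close to that of the glutamate and GABA genes. The inward rectifier potassium channel Kcnj10 (Kir4.1) stood at 61833, 65762 and 51979, beside Aqp4, Atp1b2 and Slc4a4 given above. Dystroglycan (Dag1), which anchors the end foot complex, stood at 15240.3, 14264 and 12547. Replicate 3 was the lowest library in 12 of the 18, again beside 36.9%.

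Genes of glycolysis, glycogen and lactate differed in their order between libraries, with replicate 2 highest in 17 of the 24 kept genes, where it was highest in 31.1% of all kept genes. After Aldoc the highest were Gapdh (20064, 22665 and 19991), the lactate dehydrogenase Ldhb (14249, 14529.7 and 13836), Pgam1 (10143, 13056 and 11582), Gpi1 (7855, 8829 and 8103) and Aldoa (7044, 8613 and 6954). Enolase 1 is uncertain. Eno1 was under 10 (5.85, 1.38 and 22.1) while Eno1b, a near-identical copy, stood at 7123, 7307 and 6489, and reads of the 2 may have been split by the counting.

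Lipid and cholesterol genes were all kept, 28 of 28. Apoe stood at 143869.9, 137677 and 108079.9 and Scd2 at 78697, 83011 and 68629, both lowest in replicate 3. The chaperone clusterin (Clu) stood at 24708, 26013 and 23276, the lipid exporter Abca1 at 22651, 21267 and 17529, the fatty acid binding protein Fabp7 at 15731, 10257 and 15067 and the acyl-CoA synthetase Acsbg1 at 14406, 15022 and 11023. Fabp7 was the most variable of these 6, with replicate 2 below the others. Among serine, glycine and folate genes, 15 of 15 were kept, with a median of 871 normalized counts per kb. The cystine transporter Slc7a11 (4549, 4142 and 4346), the glycine cleavage genes Dld (4099, 4562 and 4226) and Gldc (4349, 3947 and 3379) and the serine synthesis genes Psat1 (3364, 4031 and 3288) and Phgdh (2258, 2495 and 1868) followed Aldh1l1. Metal-binding and antioxidant genes were also complete, 24 of 24, with a median of 2080.4 per kb. Fth1 stood at 37745, 46955 and 46046, Ftl1 at 35763, 40128 and 33835, the glutathione transferase Gstm1 at 21480.2, 23617 and 21687 and the stress regulator Nfe2l2 at 10542, 13296 and 11419.7. Heme oxygenase Hmox1 (7199, 11821 and 10844) was lowest in replicate 1, and Prdx1 stood at 7942, 8999 and 7485.

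All 35 receptor genes on the list were kept, although over a wide range, from 29.3 to 71513 normalized counts. Ntrk2, the receptor for brain-derived neurotrophic factor, stood at 73509.6, 78460.1 and 62569.7. Next were the lipoprotein receptor Lrp1 (21853, 20357 and 19644), the orphan receptor Gpr37l1 (20759.7, 21167 and 16314), the endothelin receptor Ednrb (21571, 15892 and 14660.4), the TGF-beta receptor Tgfbr1 (13174, 13731 and 13978) and the sphingosine receptor S1pr1 (11189, 9940.2 and 8672). Ednrb was the most variable of the 6, highest in replicate 1. Secreted and matrix genes were kept in 42 of 43, and their sum had the smallest CV of any list, at 638256, 629783 and 638698 (CV 0.79%). Single members varied more, with a median CV of 11.7% where all kept genes had 12.4%. The leading members were Ptprz1 (91167, 82995 and 82648), Sparcl1 (72954, 76162 and 90500.3), Cst3 (78751, 69838 and 69972), Ncan (62481, 60533 and 69822), Cpe (48265, 52919 and 50009) and Ctsd (44072, 50571 and 49881). Sparcl1 and Ncan were highest in replicate 3. The thrombospondin gene Thbs4 was the one member under 10 (1.46, 1.38 and 7.88).

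Reactive and intermediate filament genes were all kept, 23 of 23, with the largest median CV of the function lists other than the interferon genes described further on, 24.3% where the kept genes had 12.4%. Gfap led the list. The filament protein vimentin (Vim) stood at 9724, 14970.1 and 14499.7, complement C4b at 6794, 9311 and 11209 and the chemokine Cxcl10 at 5194, 6788 and 8997. Classical MHC gene H2-D1 stood at 5132, 4863 and 6787 and the serpin Serpina3n at 2332, 3377 and 3312. Cxcl10 and the guanylate-binding protein gene Gbp2 are known interferon targets as well. Replicate 1 was the lowest library in 17 of the 23, against 33.1% of all kept genes. This count is not separate from the interferon-stimulated list described further on, which shares Cxcl10 and Gbp2 and was lowest in replicate 1 throughout. The summed level of the 23 genes was 56580, 77036 and 82698.

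Immediate early and stress genes, which respond within minutes to activity and to tissue dissociation, were kept in 36 of 36, with a median of 1397 normalized counts per kb. Egr1 ranked 19 among all kept genes at 68478, 64071 and 57419. The chaperone Hspa8 stood at 39224, 45464 and 49903, the RNA-binding protein Zfp36 at 34932, 32661 and 29964 and Fos at 27176, 23796 and 18672. The heat shock gene Hsp90aa1 stood at 15753, 22616 and 21643 and Jun at 20843, 19966 and 15195. Egr1, Zfp36, Fos and Jun were lowest in replicate 3, and Hspa8 and Hsp90aa1 were lowest in replicate 1. Over the 36 genes, replicate 3 was the lowest library in 24 and replicate 1 in 10, beside 36.9% and 33.1% of all kept genes. Which share of these levels arose during digestion was not tested, since no library made without it was analysed here.

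Single members of these lists that varied more than their neighbours were chosen after their values were seen. Lipocalin 2 (Lcn2), a reactive gene that neutrophils also carry, stood at 145, 840.3 and 259, highest in replicate 2. Metallothionein 3 (Mt3), a zinc-binding protein of the brain, stood at 397, 1158 and 816 with replicate 1 lowest. The Notch target Hes5 (1185, 795 and 727), the hedgehog target Gli1 (227, 124 and 161) and the BMP target Id3 (1825, 1021 and 1349) were all highest in replicate 1.

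The libraries were labelled astrocytes, and markers of other cell types were present beside those of astrocytes. Microglia and macrophage genes had the highest median per kb of any marker list, and all 13 were kept. The growth factor receptor Csf1r stood at 41959, 33815 and 33397, the purine receptor P2ry12 at 29785, 21162 and 19862 and the integrin Itgam at 21779.7, 20099.8 and 24777. P2ry12 was the most variable of them, highest in replicate 1. Complement genes C1qb and C1qc stood at 18937, 19736 and 19238 and at 17497, 16104 and 15102. Per kb, the list's median was 6999.8 normalized counts and that of the astrocyte list 4303, beside 151 over all kept genes with a length. With the longest transcript in place of all exons the astrocyte median became 6495 and the microglia and macrophage median stayed at its value. Summed, the list held 223048, 198125 and 199138 normalized counts, or 0.946%, 0.825% and 0.848% of the reads on genes other than Rn45s, where the astrocyte list held 2.84%, 2.86% and 2.62%. In sorted cells measured in bulk, fewer cells of a type and less RNA per cell cannot be told apart, so these sums are not cell proportions.

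Markers of macrophages at the border of the brain were kept in 7 of 7 and were highest in replicate 1 for 6 of them, beside 35.2% of all kept genes. The mannose receptor Mrc1 led at 14496, 10853 and 9973, followed by F13a1 (3181, 2679 and 1925), Lyve1 (1758, 1619 and 1099), Cd163 (1267, 936 and 985), Pf4 (1350.3, 897 and 651) and Ms4a7 (489.5, 536 and 389). Neutrophil genes had another order. The calcium-binding proteins S100a9 and S100a8 stood at 265, 2275 and 542 and at 213, 1721 and 344, the granule proteins Ngp and Ltf at 186, 1895 and 481 and at 46.8, 499.6 and 162. All 4 were highest in replicate 2 and lowest in replicate 1, beside 31.1% and 33.1% of all kept genes, and Ly6g was not listed. The heme synthesis gene Alas2 was also highest in replicate 2 (86.2, 343 and 83.5). The adult globin genes Hba-a1, Hba-a2, Hbb-bs and Hbb-bt had 0 reads in every library. They are pairs of near-identical copies, so their values are uncertain where reads with several matches were dropped.

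Oligodendrocyte genes were lowest in replicate 1 without exception, 9 of 9, and highest in replicate 2 in 8 of them, beside 33.1% and 31.1% of all kept genes. The myelin gene Mbp stood at 14695, 19069 and 22231 and Cnp at 3213, 4873 and 3783. Other myelin genes were Ermn (720.4, 3009 and 1852), Mobp (912, 2143 and 2068) and Cldn11 (675, 2147 and 1569.9). The sum of the list was 37144, 65357 and 58096, a range of 1.76-fold. Precursor genes did not share this order. All 8 were kept, Olig1 at 3021, 3618 and 2810.4 and Olig2 at 2592, 1754 and 1406 were lowest in replicate 3, and Pdgfra (619.6, 882 and 1390.2) was highest there. Cspg4 (700, 650.3 and 503), Cacng4 (629.8, 607 and 366) and Sox10 (355, 575 and 374) stayed under 1000 normalized counts in every library.

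**Figure D3:**
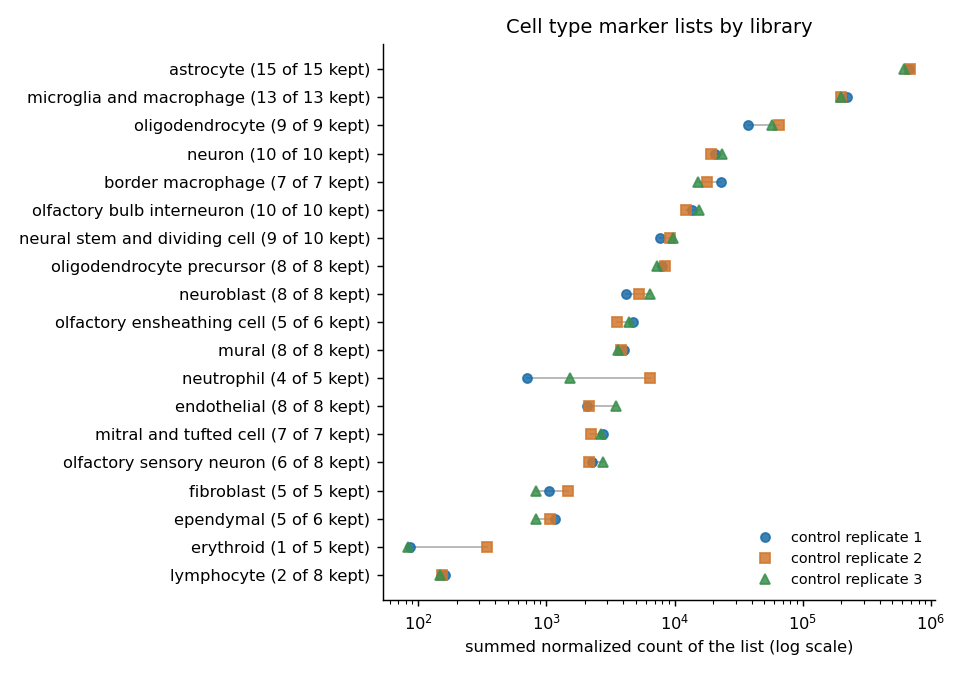
Summed normalized count (x axis, log scale) of each cell type marker list in the 3 control libraries, ordered by mean, with a grey line from the lowest to the highest library. By these sums the astrocyte list is highest in each library and the microglia and macrophage list second. The sums are of reads drawn and are not divided by transcript length or list size. Per kb the median of the microglia and macrophage list (6999.8) was above that of the astrocyte list (4303). The widest ranges are those of the neutrophil list (8.998-fold) and the erythroid list (4.10-fold).

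Neuronal genes were kept in 10 of 10. The synaptic genes Snap25 and Syt1 stood at 8048, 7459 and 9987 and at 4431, 3983 and 5023, and the microtubule protein Map2 at 6357, 6149.6 and 6143. Syp (734, 682 and 782), Rbfox3 (291, 208 and 479) and Stmn2 (229, 180.3 and 361) followed. Genes of bulb interneurons were kept in 10 of 10 as well, led by Meis2 (3725, 3589 and 4350.4), the GABA-synthesizing enzymes Gad2 (2967, 2681 and 3982) and Gad1 (2917, 2239 and 3091), Synpr (1657, 1542 and 1694), Sp8 (902, 757 and 604) and calretinin (Calb2, 530.5, 574 and 653). Replicate 3 was the highest library for 8 of the 10 neuron genes and 7 of the 10 interneuron genes, beside 33.8% of all kept genes. Neuroblast genes were kept in 8 of 8. The neuroblast genes Dcx (1819, 2011 and 2788), Cd24a (985, 1658 and 1792) and Sox11 (661, 849.9 and 1036) had the order in which replicate 1 was lowest and replicate 3 highest, above Dlx1 (281, 374 and 385), Dlx5 (244, 189 and 195) and Dlx2 (101, 126 and 134). Over the 8 genes, replicate 3 was the highest library in 5 and replicate 1 the lowest in 6, beside 33.8% and 33.1% of all kept genes.

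Mitral and tufted cell genes were kept in 7 of 7, with a median of 29.3 normalized counts per kb beside 278 for the interneuron genes, led by Reln (1279, 1003 and 1346), Cdhr1 (926, 778 and 810.2) and the vesicular glutamate transporter Slc17a7 (298, 272 and 257). Eomes (121, 85.3 and 118), Slc17a6 (109.6, 65.4 and 80.4) and Tbr1 (23.4, 19.3 and 37.8) followed. Of 8 olfactory sensory neuron genes 6 were kept. The olfactory marker protein Omp stood at 437, 462 and 662, the G protein Gnal at 886, 833 and 1122, Stoml3 at 479, 493 and 583, Adcy3 at 355, 257 and 277, Gng13 at 74.5, 83.3 and 102 and Cnga2 at 14.6, 26.8 and 25.2. Cnga4 (17.5, 4.13 and 6.3) and Ano2 (0, 11 and 12.6) were under 10. Of 1125 olfactory receptor symbols listed, 12 were kept and 836 had 0 reads in all 3 libraries. Ensheathing cell genes, from the glia that wrap these axons, were kept in 5 of 6: Frzb (1743, 1197 and 1507), Npy (1384, 1111 and 1263), Ngfr (1074, 915 and 1181), Mybpc1 (389, 261 and 337) and Prss56 (152, 60.6 and 151), while Sostdc1 had 0, 6 and 0 reads.

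Endothelial genes were kept in 8 of 8 and were highest in replicate 3 in all 8 (33.8% over all kept genes), with a median of 53.2 normalized counts per kb. The transporter Slco1a4 (801, 558 and 1185) and the receptors Flt1 (506, 575 and 695) and Kdr (130.1, 253 and 439.8) led, above Pecam1 (184, 138 and 328), Ly6c1 (114, 209 and 317) and Cdh5 (155, 215 and 247). Mural cell genes were kept in 8 of 8, with a median of 31.6 per kb and no shared order. Notch3 stood at 2103, 2050.1 and 1529, Pdgfrb at 1128, 868 and 823 and Rgs5 at 542, 643 and 854, and the contractile genes Tagln (76, 57.1 and 70.9), Acta2 (38, 8.95 and 31.5) and Myh11 (13.2, 7.57 and 12.6) were nearest to the threshold. All 5 fibroblast genes were kept, led by Dcn (555, 752 and 370.4), with Col1a2, Col1a1, Col3a1 and Lum at means of 208, 205, 76.3 and 66. Ependymal genes other than Foxj1 (1059, 992 and 727) were under 40 on average, with Rarres2 at 34.5, Rsph1 at 31.2, Dynlrb2 at 16.7 and Ccdc153 at 11.4, and Tmem212 was under 10 (1.46, 2.75 and 4.73). Of 8 lymphocyte genes, Cd79b (132, 95 and 86.7) and Cd79a (20.5, 26.2 and 41) were kept, and the others, Cd3e, Cd3d, Ms4a1, Nkg7 and Cd2 among them, had means between 0.229 and 9.16.

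Genes of neural stem and dividing cells were kept in 9 of 10. The receptor Egfr stood at 5149.7, 4656 and 4139 and the filament gene Nes at 1406, 2621 and 2656. The proliferation genes Mki67 (516, 895 and 1311) and Top2a (352, 623 and 1124) were lowest in replicate 1 and highest in replicate 3, as was Birc5 (54.1, 70.9 and 132). The part that these other cells play in the levels of genes that several cell types share was not tested.

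Between libraries, the median CV of the kept genes was 12.4%, with 5% of genes under 2.84% and 5% over 51.9%. The CV expected from read counting alone, taken from the reads recovered for each gene, had a median of 5.17%. The observed CV was above it in 13432 genes (85.8%). A CV over 3 libraries scatters around its expected value, so part of the genes would lie above it from counting alone. The ratio of observed to counting CV rose with level, from a median of 1.67 for genes between 10 and 100 to 9.98 above 10000. The gap between the median observed and counting CVs was widest between 10 and 100. It was narrowest between 1000 and 10000, at 8.04% where counting gave 2.43%. For genes between 10 and 100 the median CV was 31.6% where counting gave 18.95%, and for genes above 10000 it was 8.24% where counting gave 0.900%. A range of 2-fold or more between the highest and the lowest library was seen in 1839 genes (11.7%).

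**Figure D4:**
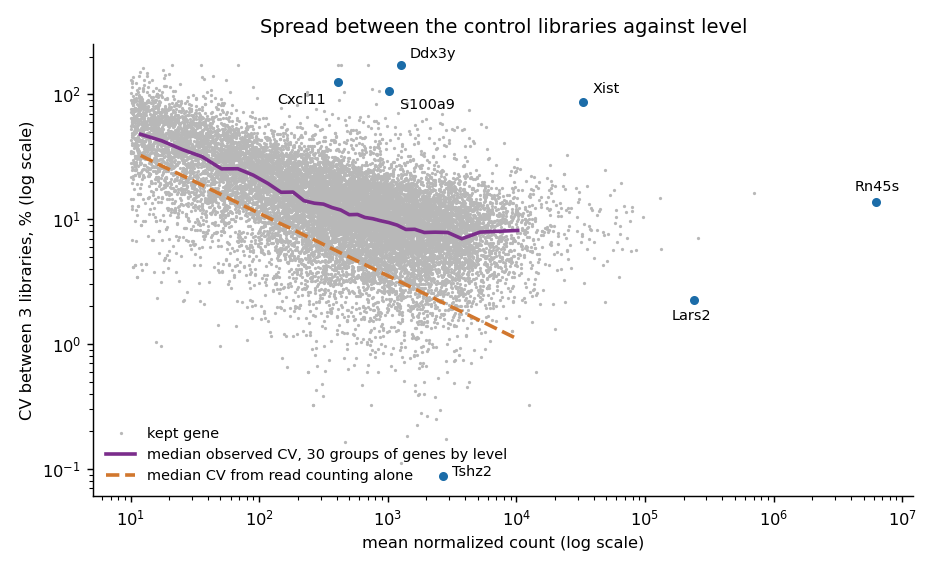
CV between the 3 control libraries (y axis, percent, log scale) against mean normalized count (x axis, log scale) for each kept gene (grey), with the median observed CV (solid line) and the median CV from read counting alone (dashed line) over 30 groups of genes by level. The solid line lies above the dashed one throughout, and Xist, Ddx3y, Cxcl11 and S100a9 lie far above genes of their level.

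Among the 12064 genes with a mean of at least 100, 98 had one library at least 2-fold away from the middle one. In 47 of them replicate 1 was the low one and in 28 replicate 3 was the high one. The 12 genes with the largest SD of log2 normalized counts came from 3 groups. Eif2s3y, Uty, Kdm5d, Ddx3y and Xist are the sex-linked genes given above. Ltf, Ngp, S100a9 and S100a8 are neutrophil genes, and the chitinase-like gene Chil3 had the same order (76, 515 and 112). The last pair were the chemokine gene Cxcl11 (33.6, 206 and 999), which the annotation gives as a polymorphic pseudogene, and the guanylate-binding protein gene Gbp4 (115, 255 and 1009). Both are known targets of interferon, and in both replicate 1 was lowest and replicate 3 highest.

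Because of Cxcl11 and Gbp4, 40 interferon-stimulated genes were added as a list after the values had been seen, so their shared order is a description of genes picked with it in view. All 40 were kept, and each was lowest in replicate 1 and highest in replicate 3. They summed to 44433, 68009 and 109231 normalized counts, a range of 2.46-fold. The tetratricopeptide gene Ifit3 stood at 1290.4, 2160.2 and 4223, the oligoadenylate synthetase-like gene Oasl2 at 2629, 4589.5 and 8601 and Ifi44 at 343, 501 and 1589. Taken instead by the names of whole families (Ifit, Oas, Oasl, Gbp, Ifi, Ifitm, Irf, Mx, Isg and Irgm), 58 of 67 symbols were kept. Of those 58, replicate 3 was the highest in 46 and replicate 1 the lowest in 45, beside 33.8% and 33.1% of all kept genes. This list was also added after the values had been seen and takes in Gbp4. It shares genes with the 40, Ifit3, Oasl2 and Ifi44 among them, so its counts are not separate from theirs. Astrocytes, microglia and endothelial cells can all express such genes, and in which cells these differed was not tested.

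**Figure D5:**
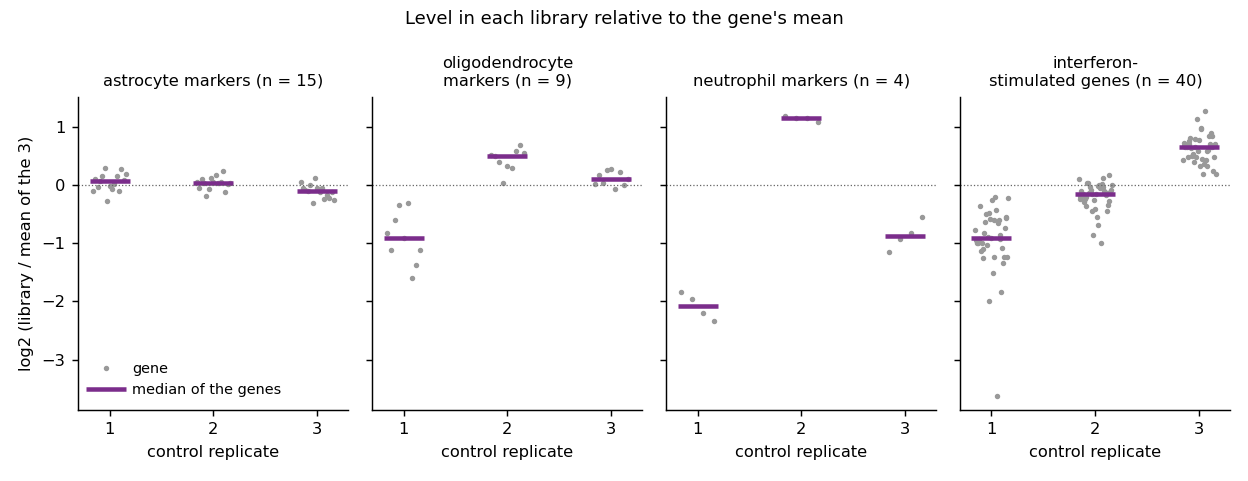
Log2 ratio of each library to the mean of the 3 (y axis) in each control replicate (x axis) for the kept members of 4 lists, with each gene as a grey point and the median as a bar. Astrocyte markers stay near 0, with medians of 0.06, 0.04 and -0.10, while the medians of the interferon-stimulated genes are -0.92, -0.15 and 0.65.

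The promoters of 5 of these genes are shown because these genes shared 1 order between the libraries: Phf11a and Ifi44, which had the largest spread among those with a sequence, and Oas1a, Ifit3 and Isg15 as examples that hold more than 1 match. Each is the 250 bases before the transcription start in RefSeq (GRCm38.p6), 5′ to 3′ on the gene's strand, with the letters GAAANNGAAA, a form of the interferon-stimulated response element, in capitals on either strand. Overlapping matches were counted separately. The windows lie at chr14:59297523-59297772, minus strand (Phf11a), chr3:151749911-151750160, minus strand (Ifi44), chr5:120907526-120907775, minus strand (Oas1a), chr19:34583279-34583528, plus strand (Ifit3) and chr4:156200819-156201068, minus strand (Isg15).
Phf11a: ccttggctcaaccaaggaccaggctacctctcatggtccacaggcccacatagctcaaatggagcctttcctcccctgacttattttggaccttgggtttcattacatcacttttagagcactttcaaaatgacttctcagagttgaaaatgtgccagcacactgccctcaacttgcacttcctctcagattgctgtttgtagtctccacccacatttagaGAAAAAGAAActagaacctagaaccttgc
Ifi44: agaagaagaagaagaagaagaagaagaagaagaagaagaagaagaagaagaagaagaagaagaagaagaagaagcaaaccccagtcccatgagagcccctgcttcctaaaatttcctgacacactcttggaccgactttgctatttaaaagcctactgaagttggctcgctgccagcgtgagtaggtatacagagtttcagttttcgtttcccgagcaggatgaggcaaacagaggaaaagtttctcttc
Oas1a: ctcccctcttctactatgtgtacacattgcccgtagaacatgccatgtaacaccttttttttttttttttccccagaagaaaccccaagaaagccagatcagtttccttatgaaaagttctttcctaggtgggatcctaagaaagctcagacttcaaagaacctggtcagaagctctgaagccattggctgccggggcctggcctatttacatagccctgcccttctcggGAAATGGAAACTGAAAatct
Ifit3: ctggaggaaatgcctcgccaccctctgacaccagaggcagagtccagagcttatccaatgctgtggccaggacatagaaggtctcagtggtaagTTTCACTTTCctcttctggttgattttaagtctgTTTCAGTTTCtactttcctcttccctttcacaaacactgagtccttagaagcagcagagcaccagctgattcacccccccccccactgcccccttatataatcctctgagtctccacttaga
Isg15: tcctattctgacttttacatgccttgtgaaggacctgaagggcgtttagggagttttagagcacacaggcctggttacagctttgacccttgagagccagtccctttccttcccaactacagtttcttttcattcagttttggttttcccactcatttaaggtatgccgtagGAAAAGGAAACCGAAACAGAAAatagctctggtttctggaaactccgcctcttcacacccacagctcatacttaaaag

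Phf11a held 1 match, Oas1a 2, Ifit3 2, Isg15 3 and Ifi44 none. Their levels in the 3 libraries were 77.5, 255 and 499.7 for Phf11a, 332, 549.9 and 1242 for Oas1a and 1062, 1982 and 3342 for Isg15. Of 29 interferon-stimulated genes on the list with a sequence, 17 held at least 1 match (58.6%), and of 27025 genes with a sequence 936 did (3.46%). The list was made of genes known as interferon targets, so its share of matches describes the list and not these libraries. Whether the matches relate to the order between the libraries was not tested. The matches are runs of letters, and whether a factor bound there was not measured. Oas1a, Ifit3, Gbp4, H2-D1 and C4b have near-identical relatives, and their values are uncertain to the extent that shared reads were split or dropped.

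At the other end, 12 genes with a mean of at least 1000 had the smallest SD. The homeobox gene Tshz2 stood at 2683, 2681 and 2686, the ubiquitin ligase component Fbxw2 at 1258, 1257 and 1259 and the RNA-binding protein Fmr1 at 1685, 1681 and 1688. Mapk1ip1l, Nin, Dlg1, Sltm, Sbds, Rabgap1, Atp2a2, Fuca2 and Wdr48 completed the set. Their CVs of 0.0884% to 0.393% were below what counting alone gives, 0.997% to 3.14%, so the order among them is not resolved by 3 libraries. Calcium pump gene Atp2a2 (12506, 12479.6 and 12559) was the most abundant of the 12.

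The median CV of genes with a mean between 1000 and 10000 was 8.04%, and the housekeeping groups were near it. All 18 reference genes were kept, with a median CV of 8.89%, and among the highest were Actb (85041, 99925 and 104159.9), B2m (73008, 74015 and 90563), Eef1a1 (76470.2, 83379 and 75282), Gapdh and the cyclophilin Ppia (19211, 21438 and 18051). Replicate 2 was the highest library in 12 of the 18, beside 31.1% of all kept genes, while Actb and B2m were highest in replicate 3. Cytosolic ribosomal protein genes were kept in 78 of 85, led by Rpl4 (18055, 21096 and 19047), with a median CV of 7.19%, and replicate 2 was the highest library in 46 of the 78 (31.1% over all kept genes). Oxidative phosphorylation genes were kept in 92 of 96 with a median CV of 8.82%, and replicate 2 was highest in 60 of the 92 beside the same 31.1%. Of the ribosomal genes under 10, Rpl26, Rpl30, Rpl34 and Rps27 are used by every cell and stood at means of 0 to 2.87. Many such genes have processed pseudogenes, so their levels depend on how shared reads were counted. Mitochondrially encoded genes were not among the symbols listed.

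At the threshold itself, Ntsr1 (11.7, 8.95 and 9.46) and the long noncoding RNA 5330413P13Rik (0, 9.63 and 20.5) lay just above a mean of 10, and Xcr1 (7.31, 6.88 and 15.8) and Gm1600 (5.85, 13.1 and 11) just below it. These 4 genes had 0 to 19 reads in a library, where 1 read is worth 0.688 to 1.58 normalized counts.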

How the data were processed

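RNA was sequenced from TurboRFP-positive cells sorted from olfactory bulbs, 1 library per mouse and 3 mice per group, prepared with the NuGEN Trio kit. Per the methods and the submitters' processing notes, the authors aligned reads with STAR 2.5.0a to mm10 and normalized with DESeq2 1.20.0. The gene annotation, the strand setting and the handling of reads with several matches were not given in the sources used here. As deposited, the values are a signal in normalized counts: although the deposited tables are named RPM, each value was a whole number of reads (within 0.01 read) divided by one size factor per library, for 100% of values, so reads were recovered. This scaling assumes that most genes do not differ between libraries, and counting error falls with depth, so control replicate 2 is the most precise.

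Only the 3 control libraries were used, except for Sox9 as a check of labels. Genes with a mean of 10 or more were kept. Python 3.11.15 with pandas 2.3.3 and numpy 2.4.6 computed means, SDs, CVs, ranks and, from exon lengths in GENCODE M21 basic (GRCm38), levels per kb. R 4.3.3 with edgeR 4.0.16 gave a dispersion as an alternative. There was 1 group, so no test was run. A pseudocount of 1 was used for log2 values. The counting CV is the one that Poisson counts of the recovered reads would give, and intervals from counting do not cover amplification. Zeros allow 3 reads per library. Promoter and miRNA sequences came from RefSeq. In the symbol column 27 entries had been turned into dates, 21 of them kept, and these were not named. The scripts were tested on simulated data.

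The members and gene lists were chosen with earlier results of these data known. Named genes were the 20 highest by normalized count and per kb, all astrocyte markers and positional factors, up to 6 highest members of each other list with any under 10, the 12 largest spreads above a mean of 100, the 12 smallest above 1000, and 2 genes on each side of the threshold. Some genes that this rule names are not reported here. Alternatives were other filters, pseudocounts, scalings, transcript lengths and leaving out each library.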

Additional observations from a re-analysis of the deposited data

How the results depend on the processing

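The number of genes kept was 14913 to 18409 under other filters and scalings and 15576 to 15685 without one library. The share of reads in the 10 and the 100 highest genes was 26.9% and 37.9%, and 7.96% and 21.6% without Rn45s, and without one library it was 26.3% to 27.9% and 37.4% to 38.9%. The median CV of 12.4% was 10.2% for genes with a mean of at least 100 and 16.1% for all genes above 0, and edgeR's common biological coefficient of variation on recovered reads was 16.6%. Without one library the median CV was 9.47% to 11.3%. A median CV over fewer libraries tends to be lower, so these values are not directly comparable with 12.4%. Scaling to equal totals, with or without Rn45s, quantile normalization and edgeR's TMM gave 12.3% to 12.5%. The median log2 level per kb of the astrocyte markers rose from 12.07 to 12.67 with the longest transcript. Of the other list medians, 3 moved by more than their spread with the longest transcript, 6 when members under 10 were left out, and 1 and 3 with pseudocounts of 0.1 and 5 (all among the lists of olfactory sensory neurons, ensheathing, ependymal, precursor, stem, erythroid and lymphoid cells). Alternatives added after the data had been seen kept the ranges between libraries at 2.46-fold to 2.60-fold for interferon-stimulated, 1.73-fold to 1.76-fold for oligodendrocyte and 8.83-fold to 9.02-fold for neutrophil genes. No paired analysis was possible because a single group was described and no test was run. Depth limits genes near 10, where a library holds a few reads.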
